A study of Homo sapiens with 65 samples.

Results

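The collagen gene family was followed through the differentiation of human embryonic stem cells towards blood-forming mesoderm and towards endoderm. Its 44 members were chosen as the human genes named COL with an alpha chain number and were matched by symbol to the identifiers of the deposited count table. All 44 were found among its 58302 genes. They comprise 11 genes of fibrillar chains, 6 of the basement membrane network (type IV), 5 of the beaded filaments (type VI), 1 of the anchoring fibrils (COL7A1), 3 of the hexagonal networks (types VIII and X), 10 of fibril-associated chains, 4 of transmembrane chains, 2 of multiplexins (COL15A1 and COL18A1) and 2 others (COL26A1 and COL28A1).

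Collagens are extracellular proteins built from alpha chains that wind into a triple helix. Prolines and lysines of the chains are hydroxylated in the endoplasmic reticulum, the helix is guarded by chaperones during export, and outside the cell the procollagens are trimmed and cross-linked. Type I and III collagens form the tensile fibrils of connective tissue, type V chains nucleate those fibrils, type VI forms beaded microfilaments around cells, and type IV forms the sheet of every basement membrane, including the one under the endothelium and under epithelia of endodermal origin.

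The cells were of the H9 line, a human embryonic stem cell line, carrying fluorescent reporters in 1 allele each of SOX17 (mCHERRY) and RUNX1C (GFP), here called WT. A derivative of that reporter line, here called KO, for which the number of clones is not stated, additionally lacked the DNA binding domain of RUNX1 on both alleles (RUNX1 -/-), made by CRISPR editing. RUNX1 is a transcription factor needed for the formation of blood cells from endothelium. All groups therefore share the H9 background and both reporters.

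In the mesoderm protocol both genotypes were sampled at days 0, 2 and 4 as unsorted cells (4 libraries per genotype and day), in a medium labelled STAPEL with BMP4, ACTIVIN A, VEGF, SCF and FGF2 to day 4, with SB431542 and CHIR 99021 added from day 2, and with VEGF, SCF, FGF2 and IGF2 afterwards. At day 7 cells were sorted as CD34+ CD43-, with the SOX17 gate positive (4 WT and 4 KO libraries) or negative (4 WT and 3 KO). At day 12 the fractions were SOX17+ CD34+ CD43- (4 WT and 4 KO), SOX17- CD34+ CD43- (1 KO), SOX17+ CD34+ CD43+ (2 WT) and SOX17- CD34+ CD43+ (3 WT). The endoderm protocol used WT cells alone, with Act A, CHIR and PI-103 on the first day and Act A with DMH-1 to day 7. It gave 3 unsorted libraries at each of days 0, 2, 4 and 7. Endoderm day 4 number 3 carries a library number next to those of the sorted libraries, apart from all other endoderm libraries. The titles of the KO samples of days 2 and 4 say KO while their genotype field names the reporters alone, and the groups follow the titles.

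The 65 libraries, prepared from total RNA with TruSeq, held between 10366048 and 19081031 counts. Levels below are the authors' deposited RPKM (reads per kilobase of gene, scaled to the size of the library, so that genes of different length can be compared), and log2 fold changes are from edgeR's quasi-likelihood test on the counts with their standard error (SE). A gene counts as called where its p, adjusted after Benjamini and Hochberg across every gene in the fit, is under 0.05. No label states that replicates come from separate cultures, and p-values therefore reflect only how far libraries of a group differ, which may be technical. In bulk RNA, fewer cells of a type and less RNA per cell cannot be told apart.

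The labels were checked on marker genes. Day 0 cells held 8 of 8 pluripotency markers at 1 RPKM or more, endoderm of day 7 held 9 of 10 markers of definitive endoderm (TTR had no count), and every CD43- fraction held 10 of 10 endothelial markers. SPN, which encodes CD43, lay at 45.5 to 65.7 RPKM in the SOX17- CD43+ libraries and at 0.209 to 0.465 in WT SOX17+ CD43- cells of day 12. SOX17 RNA lay at 63.3 to 95.2 RPKM in WT and 73.2 to 97.9 in KO SOX17+ cells of day 7. In SOX17- cells of day 7 it lay at 13.4 to 30.04 in WT and 21.9 to 28.8 in KO, lower but not absent. The SOX17+ CD43+ libraries of day 12, at 17.5 to 33.5 RPKM, overlapped that range, while the SOX17- CD43+ libraries reached at most 0.0739. RUNX1 itself lay at 5.598 to 9.47 RPKM in WT and at 1.74 to 2.64 in KO SOX17+ cells of day 7, without overlap, and overlapped between genotypes at days 0, 2 and 4. A count over the whole gene does not check the deleted domain. At day 4, WT number 3 and KO number 4 stood apart from the other 6 libraries: their summed level of mesenchyme and smooth muscle markers was 98.8 and 106.6 RPKM against 169 to 279.9, and that of blood markers 34.3 and 22.98 RPKM against 5.59 to 8.72. Endothelial markers summed to 239 RPKM in WT number 3 and 154 in KO number 4, each the lowest of its genotype. So were cardiac markers, at 1.86 and 1.09 RPKM. The mesenchyme and smooth muscle sum was also 159 to 216 RPKM in WT cells of day 0 and 162 to 333 in endoderm of day 7. The blood sum was 12.8 to 40.3 RPKM in WT cells of day 2, so neither sum is particular to those cells. Cardiac markers summed to 126 to 251 RPKM in endoderm of day 7, with 1 of 6 at 1 RPKM or more. Both day 4 groups hold 9 of 11 mesenchyme markers and 2 of 10 blood markers at 1 RPKM or more, and the blood genes PTPRC and HBZ had no count in the WT group.

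The family made up a small share of all counts except at day 4 of the mesoderm protocol. Collagens held 0.294% ± 0.0476 (SD, n = 4) of the counts of WT cells at day 0, 0.393% ± 0.0258 at day 2 and 2.08% ± 0.817 at day 4, where the single libraries ranged from 0.980% in WT number 3 to 2.71%. In the day 7 endothelial cells with SOX17 the share was 0.696% ± 0.113 (n = 4). It was 0.0337% ± 0.0117 (n = 3) in SOX17- CD43+ cells of day 12. In endoderm it was 0.270% ± 0.0259, 0.389% ± 0.0158, 0.681% ± 0.0503 and 0.773% ± 0.0132 at days 0, 2, 4 and 7 (n = 3 each).

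The leading member changed from stage to stage. COL18A1, whose C-terminal fragment is endostatin, was the highest at day 0 (61.6 ± 13.5 RPKM in WT, SD, n = 4). COL6A1 led at day 2, COL6A2 at day 4, COL4A1 in the SOX17+ fractions of days 7 and 12 and in day 7 endoderm, and COL5A2 in endoderm of days 2 and 4. By their highest group mean, COL6A2, COL6A1, COL3A1 and COL6A3 came first, all at day 4. A group of 8 members never reached a group mean of 1 RPKM in any of the 19 groups, namely COL6A5, COL10A1, COL11A2, COL17A1, COL19A1, COL20A1, COL21A1 and COL24A1.

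**Figure D1:**
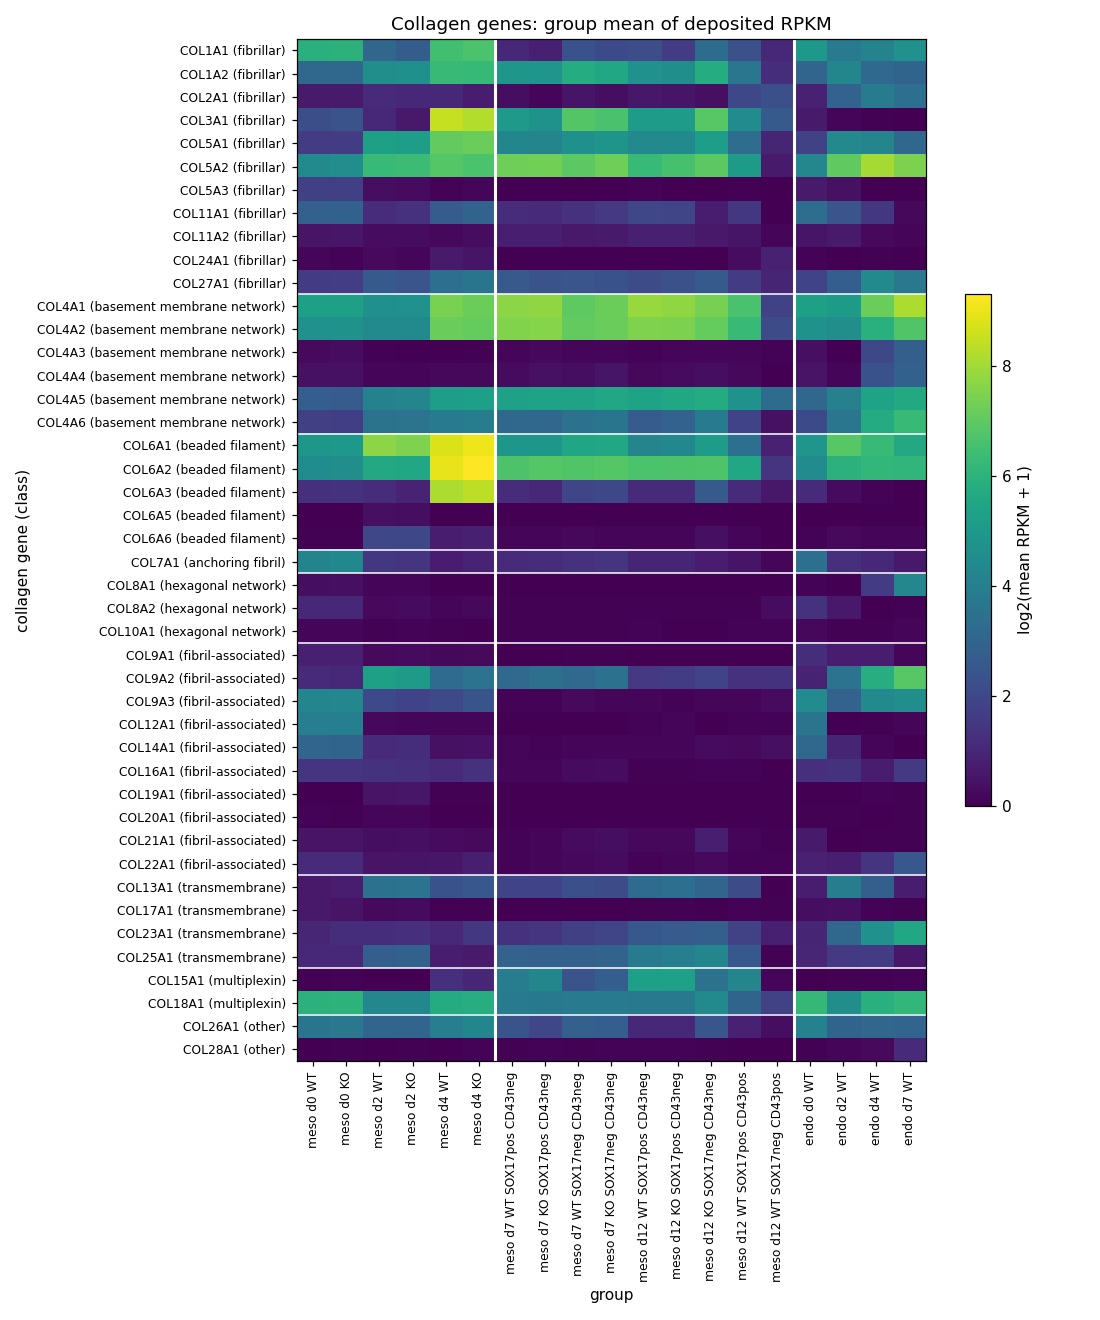
Group means of the deposited RPKM of the 44 collagen genes (rows, by class) in the 19 groups (columns), coloured as log2 of mean RPKM + 1. COL6A1, COL6A2, COL6A3 and COL3A1 are brightest at day 4 of the mesoderm protocol. COL4A1 and COL4A2 are bright at that day too, in the CD43- endothelial fractions and in day 7 endoderm. The SOX17- CD43+ column is dark.

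During the first 2 days in mesoderm medium the collagen profile was recast in both directions. Of 42 members tested in WT cells, 14 rose and 15 fell, where 45.1% of all genes tested were called, and the median log2 fold change was -0.42 for members and -0.002 for all genes. In KO cells 14 rose and 17 fell (43.3% of all genes called). The 29 members called in WT were called in the same direction in KO, that is 100% of the WT calls and 93.5% of the KO calls. COL10A1 and COL28A1 had too few counts to be tested.

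Type I and its companions parted. COL1A1, the alpha 1 chain of type I collagen, lay at 55.9, 74.1, 46.4 and 60.7 RPKM in the WT libraries at day 0 and at 7.08, 9.63, 6.25 and 6.63 at day 2. All 4 libraries of day 2 lay below all of day 0 (log2 fold change -3.00 ± 0.35 (SE), adjusted p = 3.19e-07). Its partner chain COL1A2 moved the other way, from 7.26, 9.56, 6.46 and 8.21 RPKM to 25.1, 19.4, 25.6 and 24.2, again without overlap (1.59 ± 0.37 (SE), adjusted p = 0.00128).

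Of the 3 type V chains, 2 rose and 1 fell. COL5A1 went from 2.66, 1.72, 1.53 and 2.31 RPKM to 30.03, 53.7, 34.2 and 33.01 (4.20 ± 0.38 (SE), adjusted p = 7.17e-09). COL5A2 went from 10.9, 28.4, 21.4 and 23.8 to 63.6, 98.1, 79.1 and 71.8 (1.90 ± 0.38 (SE), adjusted p = 2.91e-04). COL5A3, a further chain of type V, fell from a mean of 2.42 to 0.274 RPKM (-3.14 ± 0.47 (SE), adjusted p = 1.05e-05). COL3A1 was low and uneven at day 0, at 5.18, 5.93, 0.940 and 2.82 RPKM, and at 0.583, 1.81, 1.04 and 0.898 at day 2, and was not called in WT.

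Type VI chains, which encircle cells as beaded filaments, rose in 4 of 5 members. COL6A1 lay at 30.003, 31.7, 27.4 and 29.8 RPKM at day 0 and at 204, 191, 219 and 204 at day 2 (2.79 ± 0.16 (SE), adjusted p = 4.60e-12). COL6A2 rose less, from 27.6, 21.8, 18.9 and 20.1 to 47.03, 43.8, 52.3 and 51.3 (1.14 ± 0.24 (SE), adjusted p = 5.35e-04). COL6A5 and COL6A6 rose from near 0 to 0.316 and 2.905 RPKM, while COL6A3 stayed at 0.932, 1.65, 1.38 and 1.01 RPKM and was not called. The day 2 libraries lay above those of day 0 for COL6A1 and COL6A2 without overlap.

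Among fibril-associated chains, which decorate the fibril surface, 2 rose and 5 fell. COL9A2, a chain of type IX best known from cartilage, rose from 1.38, 1.31, 0.960 and 0.912 RPKM to 40.3, 39.3, 33.4 and 38.5 (5.06 ± 0.31 (SE), adjusted p = 2.22e-11), while COL9A1 and COL9A3 fell (-2.06 and -2.54 log2). COL12A1 lay at 11.8, 19.8, 11.7 and 15.4 RPKM at day 0 and at 0.165, 0.249, 0.152 and 0.0754 at day 2 (-6.51 ± 0.35 (SE), adjusted p = 2.39e-12), the steepest fall of the family. COL14A1 fell from a mean of 7.197 to 1.16 RPKM. COL22A1 fell as well (-1.42 log2), a call lost when any of 6 libraries was left out.

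Of 6 type IV genes, COL4A5 (1.49 ± 0.19 log2) and COL4A6 (2.08 ± 0.16) rose, and COL4A1, COL4A3 and COL4A4 fell. The fall of COL4A1 was small (-0.63 ± 0.22 (SE), adjusted p = 0.0207) and its call was lost without WT number 1 or 4 of day 2. COL4A2, at 24.2 to 26.1 RPKM at day 0 and 19.3 to 24.8 at day 2, was not called.

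COL19A1 had no count in the 4 WT libraries of day 0 and 165 counts at day 2, which is at least 65.6-fold higher against a floor of 3 counts over the group. In KO the same bound was 71.9-fold. Its level at day 2 stayed low, at 0.307 to 0.501 RPKM in WT. COL7A1, the anchoring fibril chain, fell from a mean of 17.3 to 1.88 RPKM (-3.19 ± 0.31 (SE), adjusted p = 2.40e-08). COL18A1 fell from 61.6 to 18.97 RPKM (-1.69 ± 0.27 (SE), adjusted p = 2.77e-05). The transmembrane chains COL13A1 (0.546 to 10.1 RPKM) and COL25A1 (1.03 to 5.95 RPKM) rose.

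From day 2 to day 4 many fibrillar, type VI and type IV genes rose, while the abundant COL5A2 was not called in WT. In WT, 17 of 42 tested members rose and 12 fell (51.4% of all genes called), with a median log2 fold change of -0.11 for members and -0.01 for all genes. In KO, 18 rose and 11 fell (50.5% of all genes called), and 28 members were called in the same direction in both genotypes, 96.6% of the calls of each. By class in WT, 7 of 11 fibrillar genes rose and 1 fell, 4 of 6 type IV genes rose, 3 of 5 type VI genes rose and 2 fell, and no fibril-associated gene rose while 4 of 10 fell.

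COL6A3, the largest of the classical type VI chains, lay at 0.932 to 1.65 RPKM at day 2 and at 231, 365, 122 and 427 RPKM at day 4 in WT (7.85 ± 0.49 (SE), adjusted p = 4.55e-11). In KO it lay at 220.3, 565, 176 and 363 RPKM, again above every library of day 2. COL6A2 reached 569, 569, 246 and 673 RPKM in WT (3.40 ± 0.26 (SE), adjusted p = 8.90e-10) and COL6A1 436, 447, 327 and 534 RPKM (1.09 ± 0.15 (SE), adjusted p = 2.62e-06). All day 4 libraries lay above those of day 2 for these 3 genes.

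COL3A1, the chain of type III collagen that accompanies type I in extensible tissue, lay at 353, 603, 27.5 and 458 RPKM in WT and at 202, 689, 293 and 24.3 in KO, in the order of replicate numbers. The lowest values are those of WT number 3 and KO number 4. The log2 fold change against day 2 was 8.39 ± 1.03 (SE), adjusted p = 7.02e-07 in WT and 9.16 ± 1.07 (SE), adjusted p = 3.62e-07 in KO.

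COL1A2 showed the same pair of low libraries, at 89.2, 101, 26.9 and 93.3 RPKM in WT and 74.5, 123, 81.1 and 18.98 in KO. COL1A1 was not low in KO number 4, with 56.1, 128, 49.2 and 126 RPKM in WT and 47.8, 172, 74.3 and 114 in KO. From day 2, COL1A1 rose by 3.60 ± 0.36 on the log2 scale in WT and COL1A2 by 1.72 ± 0.37. COL5A1 rose to 114, 226, 47.1 and 151 RPKM (1.84 ± 0.34 (SE), adjusted p = 1.14e-04), with number 3 below the highest library of day 2.

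Of the 6 type IV genes, 4 rose, by different amounts. COL4A1 lay at 22.9, 29.5, 24.4 and 21.5 RPKM at day 2 and 217, 226, 80.2 and 169.9 at day 4 (2.82 ± 0.23 (SE), adjusted p = 2.19e-09). COL4A2 went from 19.3, 24.8, 20.7 and 19.4 to 168, 177, 72.7 and 154 (2.76 ± 0.20 (SE), adjusted p = 3.73e-10). COL4A5 rose by 1.15 ± 0.18 and COL4A6 by 0.37 ± 0.15 log2, the latter a call lost when any of 4 libraries was left out. COL4A3 and COL4A4 stayed low, at 0.0132 to 0.0260 and 0.105 to 0.263 RPKM at day 4.

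The multiplexin COL15A1, found in basement membranes of vessels, had 3 counts over the WT libraries of day 2 and 604 at day 4, a ratio of 149.9 (95% counting interval 51.04 to 728.8, counting error only). It was low in the same 2 libraries, with 1.54, 3.19995, 0.187 and 0.657 RPKM in WT and 0.988, 1.57, 1.31 and 0.106 in KO. COL18A1 rose again, to 52.6 RPKM. COL11A1 (1.296 to 5.56 RPKM), COL24A1, COL26A1 and COL27A1 rose too, with log2 fold changes of 2.10, 1.81, 1.05 and 0.89. The call of COL26A1 was lost without WT number 2 of day 4.

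Several genes raised at day 2 had fallen by day 4. COL9A2 fell from 37.9 to 8.92, 4.81, 13.3 and 7.12 RPKM (-2.15 ± 0.27 (SE), adjusted p = 8.83e-07). COL13A1 fell by 1.32 ± 0.30 and COL25A1 by 3.11 ± 0.47 on the log2 scale. COL6A5 went from 139 counts to 2 over the WT libraries, a 93.4-fold difference (95% counting interval 25.4 to 778.6), and COL6A6 fell by 2.22 ± 0.32 on the log2 scale. COL7A1, COL14A1, COL17A1, COL19A1, COL5A3 and COL20A1 fell as well in WT, all from below 2 RPKM. COL8A1 fell from 0.0832 to 0.0179 RPKM, and that call ended without the 2 libraries that stand apart.

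Leaving out WT number 3 and KO number 4 of day 4, chosen after seeing the data, gave 18 higher and 12 lower members in WT and 18 and 13 in KO. COL5A2 was called higher in WT only without them. The mean of COL3A1 in the other 3 WT libraries was 471 ± 126 RPKM (SD), against 27.5 in number 3. Summed markers of mesenchyme and smooth muscle, of endothelium and of cardiac muscle were lowest of each genotype in these 2 libraries, and those of blood highest. The part of these sums in the collagen values was not tested.

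**Figure D2:**
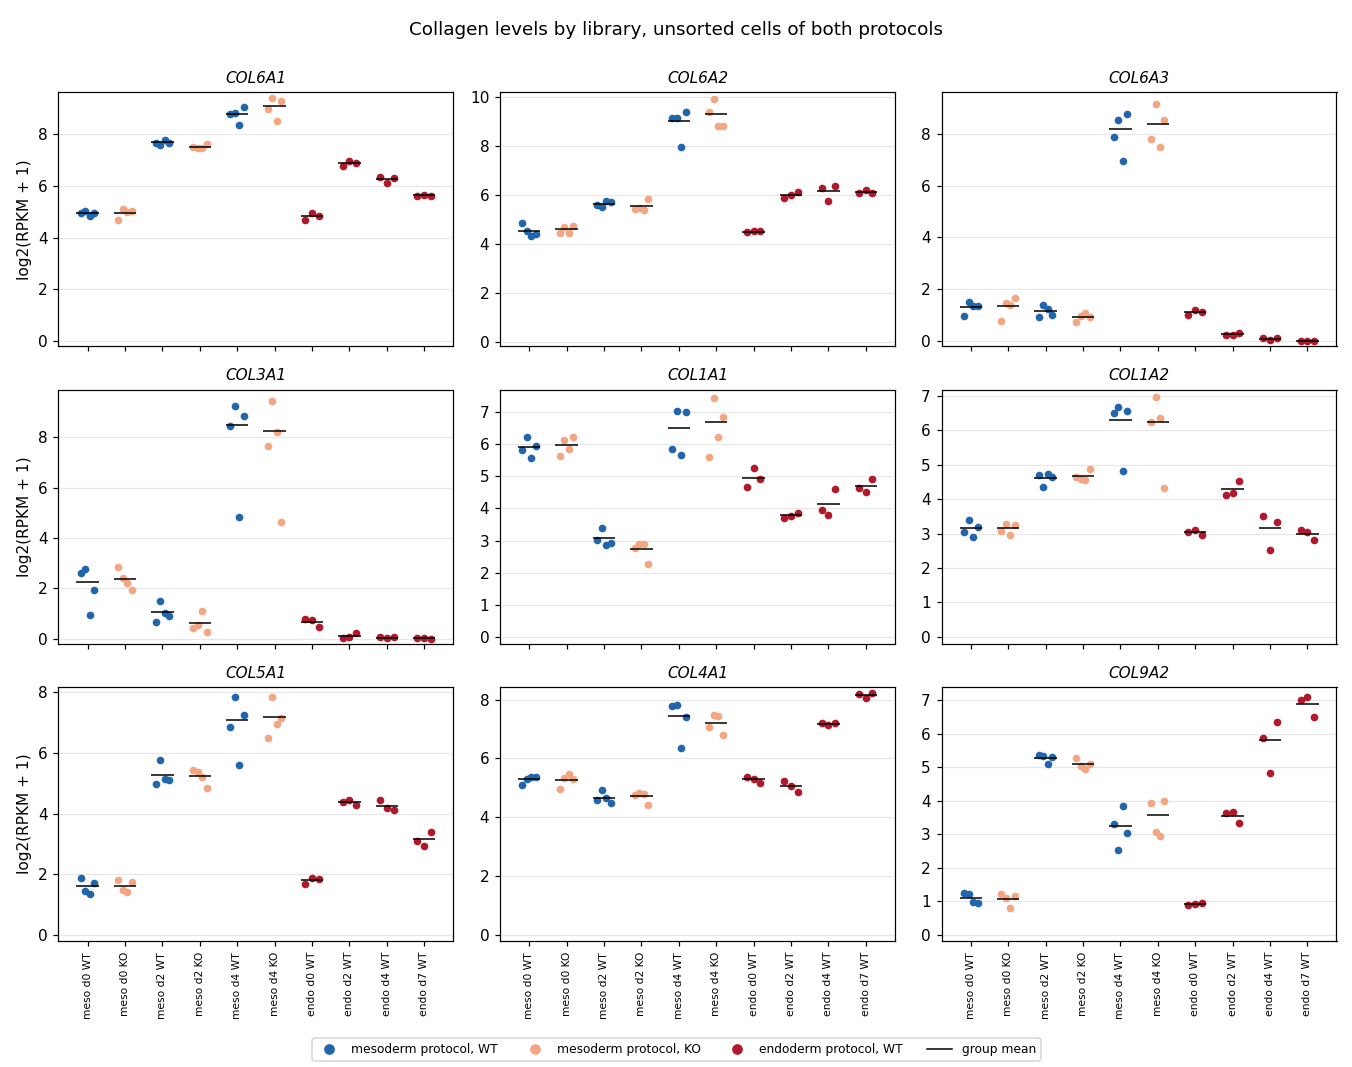
Levels of 9 collagen genes by library in unsorted cells, as log2 of RPKM + 1 on the y axis and group on the x axis, 1 point per library and a line at the group mean. COL6A3 and COL3A1 are low at day 2 and high at day 4 of the mesoderm protocol, with lower points for COL3A1 in WT number 3 and KO number 4. Both genes are near 0 at days 4 and 7 of the endoderm protocol.

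In the endoderm protocol type IV genes rose after day 2, and COL4A1 was the highest member at day 7. Of 40 members tested, 14 rose and 18 fell from day 0 to day 2 (55.5% of all genes called), 15 rose and 11 fell from day 2 to day 4 (42.4%), and 12 rose and 11 fell from day 4 to day 7 (21.3%). The medians of members were -0.15, 0.18 and -0.01 log2, against 0.02, 0.01 and -0.03 for all genes. All 6 type IV genes rose from day 2 to day 4, and 5 of 6 rose further to day 7. Of 11 fibrillar genes, 0 rose and 5 fell from day 4 to day 7. COL6A5, COL10A1, COL15A1 and COL19A1 could not be tested.

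COL4A1 lay at 36.98, 32.4 and 28.3 RPKM at day 2, 146, 139 and 145 at day 4 and 289.7, 265 and 300.4 at day 7, with no overlap between days (log2 fold change 2.15 ± 0.10 (SE), adjusted p = 3.77e-09 to day 4 and 1.00 ± 0.10 (SE), adjusted p = 9.03e-06 to day 7). COL4A2 followed at a lower level, with 58.01, 55.5 and 61.8 and 112, 109 and 108 RPKM at days 4 and 7. COL4A6, a chain of epithelial basement membranes, reached 65.7, 86.6 and 77.7 RPKM at day 7 (0.58 ± 0.15 (SE), adjusted p = 0.0119 against day 4, a call lost without endoderm day 4 number 1 or day 7 number 2). The highest library of this gene in the mesoderm protocol was at 17.4 RPKM, in KO cells of day 4, below all endoderm libraries of days 4 and 7.

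COL4A3 and COL4A4, the chains that join COL4A5 in the mature basement membrane of kidney and lung, rose as a pair. COL4A3 was at 0.0190, 0.0254 and 0.0267 RPKM at day 2 and 2.295, 3.05 and 3.68 at day 4 (6.95 ± 0.28 (SE), adjusted p = 1.04e-09), and at 5.53, 5.76 and 6.74 at day 7. COL4A4 was at 0.0878, 0.111 and 0.105, then 3.19, 3.29999 and 5.76 (5.33 ± 0.26 (SE), adjusted p = 4.09e-09), then 5.91, 6.204 and 7.08. The last step was called for both, and for COL4A4 it was lost when any of 3 libraries was left out. The highest mean in a mesoderm group was 0.244 RPKM for COL4A3 and 0.424 for COL4A4.

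COL8A1, a short-chain collagen of hexagonal lattices, had 2 counts at day 2 and 895 at day 4, a 507.9-fold difference (95% counting interval 140.2 to 4200), and rose from 2.43, 2.11 and 1.84 RPKM to 14.99, 17.6 and 24.5 at day 7 (3.17 ± 0.21 (SE), adjusted p = 2.95e-07). COL23A1, a transmembrane collagen, rose at each step, from 0.960 to 7.52, 25.4 and 49.1, 53.2 and 36.2 RPKM (1.76 ± 0.19 (SE), adjusted p = 5.63e-06 for day 4 against day 2). COL9A2 rose at each step as well, to 126, 135 and 90.3 RPKM (3.60 ± 0.34 (SE), adjusted p = 8.87e-07 at the first step). COL9A3 fell to day 2 and rose to day 4, and COL2A1, the cartilage fibrillar chain, rose at both of the first steps to 13.3 RPKM, the second call being lost when any of 4 libraries was left out.

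COL5A2 lay at 20.99, 23.1 and 12.9, 150.4, 106 and 133, 316, 253 and 232 and 178, 169 and 189 RPKM at days 0, 2, 4 and 7. It was called at each step, and its last fall (-0.58 ± 0.18 log2) was lost when any of 5 of the 6 libraries was left out. COL6A1 reached 109, 124 and 119 RPKM at day 2 and fell to 47.5, 49.9 and 48.5 by day 7. COL6A3 went from 1.16 RPKM at day 0 to 0.0652 at day 4, with -2.53 ± 0.25 (SE), adjusted p = 1.36e-06 at the first step. COL3A1 never passed 1 RPKM on average in endoderm, with means of 0.596, 0.0792, 0.0291 and 0.0176.

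COL12A1 had its fall at day 2 in this protocol too, from 11.1, 13.9 and 8.07 to 0.00464, 0.00465 and 0.0146 RPKM (-10.34 ± 0.49 (SE), adjusted p = 1.04e-09). COL13A1 rose to 13.9 RPKM at day 2 and fell to 0.622 by day 7. COL11A1 fell at each of the 3 steps, from 9.06 to 0.142 RPKM. COL16A1, COL22A1 and COL28A1 rose between days 4 and 7, to 1.98, 4.82 and 1.16 RPKM.

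The changes since day 0 were compared directly between protocols in WT cells, as a difference of log2 fold changes. By day 2, 7 of 43 tested members had a more positive and 7 a more negative change in mesoderm (29.5% of all genes called). By day 4 these were 16 and 13 (40.4% of all genes called), with a median of -0.17 for members and 0.02 for all genes. At day 4, 6 of 11 fibrillar and 4 of 5 type VI genes were called with the more positive change in mesoderm, while 3 of 6 type IV genes were called with the more negative one.

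At day 2 the protocols parted on a few abundant genes. COL1A1 fell more in mesoderm (difference -1.78 ± 0.41 (SE), adjusted p = 0.00295) and COL9A2 rose more there (1.45 ± 0.46 (SE), adjusted p = 0.0233, a call lost without endoderm day 2 number 3). COL23A1 had its larger rise in endoderm, to 9.24, 7.33 and 5.98 RPKM against 0.969, 1.46, 1.44 and 1.34 in mesoderm (-2.60 ± 0.42 (SE), adjusted p = 1.25e-04). The type VI chains COL6A1 (0.68 ± 0.17) and COL6A3 (2.29 ± 0.48) had the more positive change in mesoderm. By limma on the deposited values the difference of COL6A3 was 0.71 log2 (adjusted p = 0.179) and was not called.

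At day 4 the differences were large. COL6A3 (11.74 ± 0.57 (SE), adjusted p = 5.82e-12) and COL3A1 (10.89 ± 1.40 (SE), adjusted p = 2.91e-06) led on the mesoderm side, followed by COL5A1 (3.18 ± 0.47), COL1A2 (3.14 ± 0.44), COL6A2 (2.83 ± 0.32) and COL6A1 (2.41 ± 0.17). On the endoderm side stood COL8A1 (-8.92 ± 0.90), COL4A3 (-6.61 ± 0.47), COL23A1 (-4.57 ± 0.42), COL4A4 (-4.46 ± 0.45) and COL9A2 (-3.06 ± 0.46). COL4A2 rose more in mesoderm (1.36 ± 0.26 (SE), adjusted p = 2.60e-04), while COL4A6 rose more in endoderm (-1.56 ± 0.22 (SE), adjusted p = 9.77e-06) and COL4A1 and COL4A5 were not called. COL15A1 had the more positive change in mesoderm (4.51 ± 1.59 (SE), adjusted p = 0.0285) and COL5A2 the more negative (-1.36 ± 0.46 (SE), adjusted p = 0.0227), and these calls were lost when any of 5 and of 3 libraries was left out. Without WT number 3 of day 4 the counts were 18 and 13, and COL4A1 was then called.

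**Figure D3:**
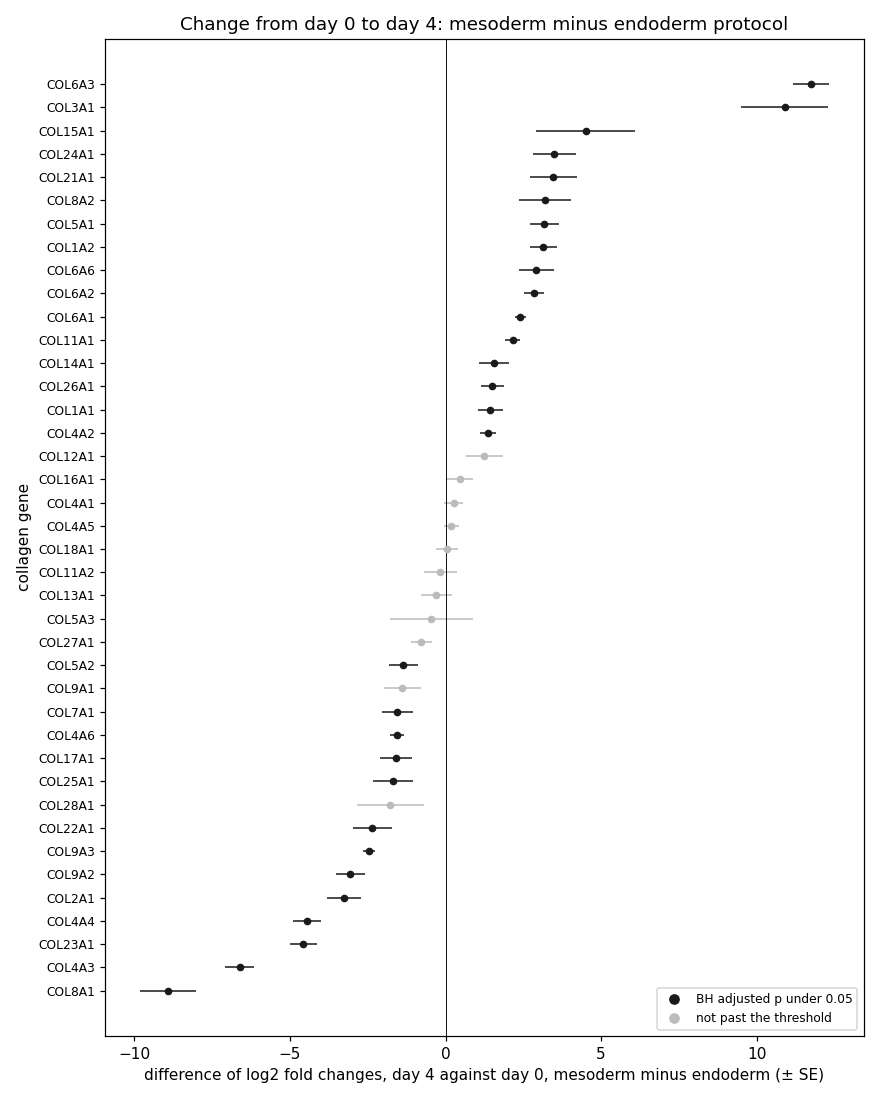
Difference between the protocols in the log2 fold change from day 0 to day 4 (x axis, mesoderm minus endoderm, bars are ± SE) for the 40 collagen genes with more than 3 counts in each group, sorted. The 29 genes past the threshold are black, with COL6A3 and COL3A1 farthest to the right and COL8A1 and COL4A3 farthest to the left.

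Most tested members were lower in sorted endothelial cells of day 7 than at day 4. Of 6 type IV genes, 1 was higher (COL4A3, at a mean of only 0.0992 RPKM at day 7), 1 was lower (COL4A6) and 4 were not called in WT. Against day 4, 5 of 36 tested members were higher and 23 lower in WT SOX17+ CD34+ CD43- cells (62.1% of all genes called, 30.3% lower), with a median of -1.81 for members and -0.01 for all genes. In KO, 6 were higher and 23 lower (63.1% called, 31.6% lower), and 27 members were called in the same direction in both genotypes, 96.4% of the WT and 93.1% of the KO calls. Day, sorting and the series of library numbers change together here and cannot be told apart. Summed endothelial markers lay at 239 to 387 RPKM at day 4 and 1717 to 1948 at day 7, and those of mesenchyme and smooth muscle at 98.8 to 235 and 36.2 to 58.2. The latter sum was also 159 to 216 RPKM in undifferentiated WT cells of day 0, so it is not particular to mesenchyme. The part of these sums in the collagen values was not tested.

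COL6A3 lay at 1.49, 1.73, 0.573 and 1.39 RPKM in the day 7 cells (-7.77 ± 0.55 (SE), adjusted p = 1.19e-08), which overlaps its values at day 2. COL1A1 also fell steeply, to 0.903, 1.78, 0.353 and 1.29 RPKM (-6.36 ± 0.64 (SE), adjusted p = 4.88e-07). COL6A1 (29.5 RPKM, -3.86 ± 0.21 (SE), adjusted p = 1.17e-09) fell, as did its partner COL6A2 (104 RPKM, -2.28 ± 0.29 (SE), adjusted p = 5.74e-06). COL3A1 lay at 19.6, 53.8, 22.2 and 27.02 RPKM, a range that includes the 2 low libraries of day 4.

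COL15A1 was the abundant gene with the opposite course, at 14.9, 19.9, 8.04 and 14.9 RPKM (3.39 ± 0.66 (SE), adjusted p = 3.68e-04). COL25A1, a transmembrane collagen, also rose, from 0.683 to 7.196, 5.25, 8.71 and 4.89 RPKM (3.26 ± 0.52 (SE), adjusted p = 5.85e-05). COL4A1 (183, 209, 166 and 255 RPKM), COL4A2 (169, 207, 145 and 223), COL4A5 (37.7, 35.97, 40.98 and 43.3) and COL5A2 (126, 144, 136 and 204) were not called. COL4A1 and COL4A2 were called higher in KO without the 2 day 4 libraries that stand apart.

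For the day 7 gate on SOX17, a transcription factor that marks arterial endothelium, few collagens were called, but a larger share than of all genes. In WT, 2 of 35 tested members were higher and 2 lower in SOX17+ than in SOX17- cells (11.4% of members and 1.6% of all genes called). In KO, 1 was higher and 2 lower (8.57% of members and 0.67% of all genes called). At an unadjusted p under 0.05 there were 15 members in WT and 17 in KO, against 2619 and 1832 of all 22978 genes. The median log2 fold changes of members were -0.35 in WT and -0.38 in KO, against -0.009 and -0.004 for all genes. COL15A1 and COL3A1 were called in the same direction in both genotypes, and the test of the difference between genotypes called 0 of 35 members (0% of all genes; 0 members at an unadjusted p under 0.05).

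COL15A1 lay at 14.9, 19.9, 8.04 and 14.9 RPKM in WT SOX17+ and at 4.51, 5.798, 2.83 and 3.82 in SOX17- cells, without overlap (1.76 ± 0.28 (SE), adjusted p = 8.45e-04). In KO it lay at 13.8, 18.4, 28.6 and 12.6 and 6.22, 5.68 and 5.704 (1.66 ± 0.31 (SE), adjusted p = 0.00665), a call lost without KO SOX17- number 2. COL3A1 was on the other side, at 19.6, 53.8, 22.2 and 27.02 against 83.3, 159, 88.9 and 114 RPKM in WT (-1.87 ± 0.40 (SE), adjusted p = 0.0125), and its adjusted p was between 0.0510 and 0.0648 when any of 4 libraries was left out. In KO it lay at 19.5, 43.1, 17.9 and 22.4 against 75.8, 128 and 91.1 (-1.93 ± 0.43 (SE), adjusted p = 0.0256), again without overlap, though the adjusted p rose to between 0.0689 and 0.193 when any of 5 libraries was left out.

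COL4A1 was higher in WT SOX17+ cells, at 183, 209, 166 and 255 against 124, 133, 122 and 128 RPKM (0.68 ± 0.14 (SE), adjusted p = 0.00867), a call lost without SOX17+ number 4 (adjusted p = 0.0629). COL21A1 was lower there, at a mean of 0.0654 against 0.200 RPKM, a call lost when any of 5 libraries was left out. COL4A6 was lower in KO SOX17+ cells (-0.60 ± 0.14 (SE), adjusted p = 0.0427), a call lost when any of 6 libraries was left out. In KO, leaving out SOX17- number 2 left 0 called members. With the run of library numbers as a block, which pairs these KO libraries, 6 members were called. Summed mesenchyme markers overlapped, at 36.2 to 58.2 RPKM in WT SOX17+ and 39.4 to 66.8 in SOX17- cells, with 5 of 11 and 8 of 11 of them at 1 RPKM or more, and their part was not tested.

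Between day 7 and day 12, SOX17+ CD43- endothelium had more RNA of some members, among them COL15A1, COL11A1 and 3 transmembrane collagens, and less of others. In WT, 7 of 35 tested members rose and 7 fell (17.8% of all genes called). In KO, 7 rose and 6 fell (13.3% of all genes called), and 9 members were called in the same direction in both, 64.3% of the WT and 69.2% of the KO calls. COL11A1 rose in both genotypes, by 1.25 ± 0.32 log2 in WT and 1.23 ± 0.32 in KO, the latter a call lost without KO number 4 of day 12.

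COL15A1 rose from 14.9, 19.9, 8.04 and 14.9 to 37.1, 47.6, 39.3 and 26.3 RPKM in WT (1.39 ± 0.27 (SE), adjusted p = 6.14e-04) and by 1.08 ± 0.27 log2 in KO. COL25A1 rose from 7.196, 5.25, 8.71 and 4.89 to 16.01, 14.4, 13.4 and 10.6 (1.06 ± 0.30 (SE), adjusted p = 0.0120). COL13A1 (2.696 to 8.45 RPKM) and COL23A1 (1.599 to 4.87 RPKM), both anchored in the plasma membrane, rose in both genotypes (1.65 ± 0.20 and 1.61 ± 0.27 log2 in WT).

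COL9A2 fell from 9.37, 8.78, 5.104 and 8.99 to 1.66, 2.09, 1.61 and 2.41 RPKM (-2.05 ± 0.23 (SE), adjusted p = 3.68e-07), and in KO by 2.21 ± 0.23 on the log2 scale. COL5A2 fell from 126, 144, 136 and 204 to 87.3, 79.4, 67.95 and 78.03 (-0.96 ± 0.25 (SE), adjusted p = 0.00801). COL26A1 and COL16A1 fell in both genotypes, from means of 4.401 and 0.0975 to 1.11 and 0.0385 RPKM in WT. COL1A1 and COL21A1 rose, and COL6A1, COL27A1 and COL4A6 fell, in WT. The calls of COL1A1, COL6A1, COL16A1, COL21A1 and COL27A1 were each lost when any of 4 to 7 libraries was left out. COL1A1 overlapped between days, at 0.903, 1.78, 0.353 and 1.29 and 4.68, 2.63, 5.32 and 1.604 RPKM. The number called dropped to 9 without WT day 12 number 3, and in KO to 8 without KO day 12 number 4.

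CD43+ cells of day 12 held less collagen RNA than CD43- endothelium, and those of the SOX17- gate the least. In SOX17- CD34+ CD43+ cells, 25 of 35 tested members were lower and 4 higher than in SOX17+ CD34+ CD43- endothelium of the same day (66.2% of all genes called, 33.9% lower), with a median of -2.58 for members and -0.02 for all genes. SOX17+ CD34+ CD43+ cells stood between them, with 13 lower and 2 higher (26.5% called, 10.9% lower) and a median of -0.62. Between both CD43+ fractions, 24 members were lower and 2 higher in the SOX17- cells (37.5% called, 22.9% lower). Blood markers summed to 525 to 641 RPKM in SOX17- CD43+, 213 to 231 in SOX17+ CD43+ and 3.24 to 6.901 in SOX17+ CD43- cells, and endothelial markers to 34.1 to 76.3, 1036 to 1082 and 2018 to 2536. The mix of cells within a gate and its part in these values was not tested. Without SOX17+ CD43+ number 2, 7 members were called between SOX17+ CD43+ and SOX17+ CD43- cells, with the remaining library taken to vary like the other groups.

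COL4A1 lay at 215, 236, 231 and 254 RPKM in SOX17+ CD43-, 105 and 91.3 in SOX17+ CD43+ and 2.15, 3.39 and 2.13 in SOX17- CD43+ cells. The 3 fractions did not overlap (-6.47 ± 0.20 (SE), adjusted p = 1.72e-19 between the outer fractions). COL15A1 went through 37.1, 47.6, 39.3 and 26.3, 20.4 and 15.6 and 0.0714, 0.139 and 0.122 RPKM (-8.34 ± 0.47 (SE), adjusted p = 1.32e-14). COL25A1 had the largest fold difference of the 25, with 16.01, 14.4, 13.4 and 10.6 RPKM in endothelium and 0.00893, 0.0521 and 0.0175 in SOX17- CD43+ cells (-8.91 ± 0.59 (SE), adjusted p = 3.99e-13).

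COL5A2 (78.2 to 0.601 RPKM), COL6A2 (100.2 to 1.62) and COL4A2 (179 to 3.47) were lower as well. COL4A5 kept 9.97, 9.75 and 6.72 RPKM and was the most abundant collagen of that fraction (-2.16 ± 0.16 (SE), adjusted p = 6.05e-12). COL3A1 was still at 2.74, 11.2 and 1.63 RPKM there.

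Higher in SOX17- CD43+ cells were 4 members. COL24A1, a fibrillar chain of low level, lay at 0.00564 to 0.00700 RPKM in endothelium, 0.211 to 0.248 in SOX17+ CD43+ and 0.584 to 1.06 in SOX17- CD43+ cells (6.86 ± 0.52 (SE), adjusted p = 4.96e-12), with no overlap between fractions. Each endothelial library held 1 count of COL24A1, so the size of that fold is uncertain. COL2A1 rose to 2.54 and 3.53 and 3.85, 4.03 and 3.54 RPKM from 0.376, 0.668, 0.495 and 0.579 (2.90 ± 0.34 (SE), adjusted p = 2.64e-08), and the 2 CD43+ fractions were not called different. COL8A2 lay at 0.124 to 0.398 RPKM in SOX17- CD43+ cells and COL14A1 at 0.168 to 0.467, both under 1 RPKM.

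**Figure D4:**
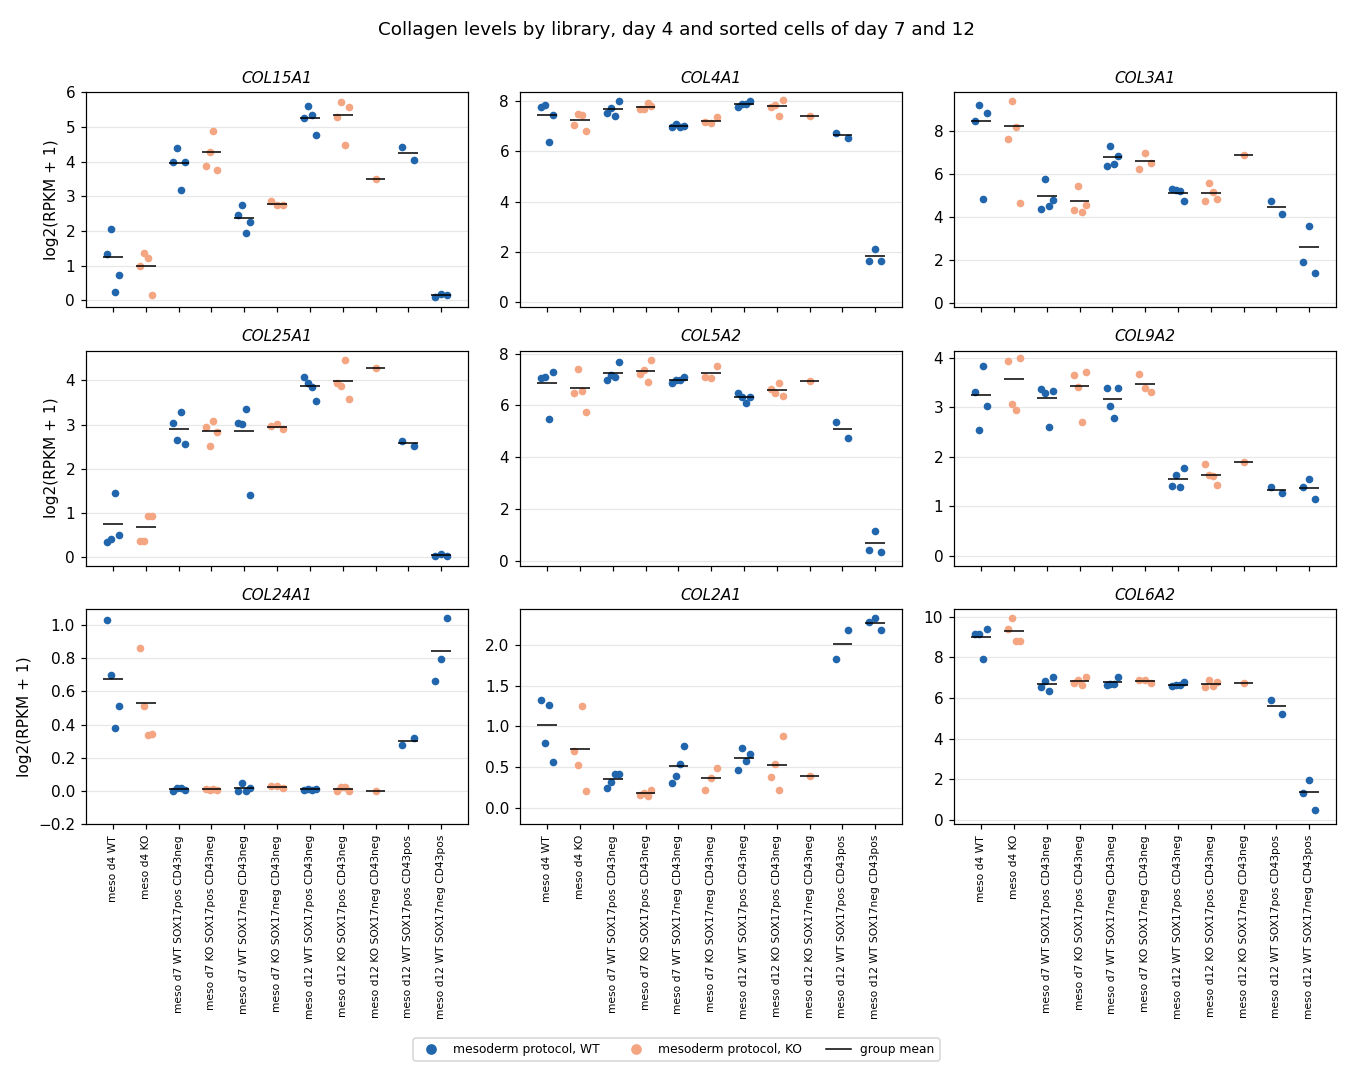
Levels of 9 collagen genes by library at day 4 and in the sorted fractions of days 7 and 12, as log2 of RPKM + 1 on the y axis and group on the x axis, 1 point per library and a line at the group mean. COL15A1 is higher in SOX17+ than in SOX17- cells of day 7, COL3A1 is lower, COL24A1 and COL2A1 are highest of the sorted cells in the CD43+ fractions, and COL4A1, COL15A1, COL25A1, COL5A2 and COL6A2 are lowest in SOX17- CD43+ cells.

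Loss of the RUNX1 DNA binding domain was not accompanied by a called change of any collagen. KO against WT gave 0 called members of 42 tested at day 0 (0% of all genes), at day 2 (0%) and at day 4 (0%) by edgeR, with 0, 0 and 2 members at an unadjusted p under 0.05. It gave 0 of 35 in SOX17+ cells of day 7 (0.0566% of all genes), in SOX17- cells of day 7 (0.0087%) and in SOX17+ CD43- cells of day 12 (0.187%), with 4, 1 and 0 members at an unadjusted p under 0.05. The change of the KO effect between days 7 and 12 was called for 0 members (0.00435% of all genes; 0 unadjusted). DESeq2, limma and the replicate block also called 0 members in each of these comparisons.

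For the 16 members with the highest group means, the log2 fold changes of KO against WT ran from -0.05 (COL4A5) to 0.61 (COL15A1) at day 0, from -1.01 (COL3A1) to 0.41 (COL15A1) at day 2 and from -0.46 (COL15A1) to 0.72 (COL23A1) at day 4. Their SE reached 1.01, 1.73 and 0.73 at these days, and COL15A1 at day 2 had 5 counts in KO and 3 in WT. In SOX17+ endothelium the log2 fold changes ran from -0.51 (COL1A1) to 0.37 (COL15A1) at day 7 and from -0.79 (COL1A1) to 0.30 (COL5A2) at day 12, with SE between 0.13 and 0.59. COL4A1, the most abundant there, lay at 183, 209, 166 and 255 RPKM in WT and 203, 202, 237 and 223 in KO at day 7, and at 215, 236, 231 and 254 and 215, 229.7, 167 and 259 at day 12. Both genotypes overlapped at each day. A p that misses the threshold does not show that the genotypes are alike.

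Endoderm and endothelium of day 7 were both rich in type IV collagen but differed in nearly every member. Of 33 tested, 18 were higher and 13 lower in endoderm than in WT SOX17+ CD43- endothelium (71.6% of all genes called). The protocols also differ in sorting and library-number series, which cannot be told apart from the difference in cell type. Higher in endoderm were COL8A1 (11.43 ± 0.33 log2), COL9A3 (22.7 against 0.0681 RPKM), COL4A3, COL4A4, COL23A1 (46.2 against 1.599), COL9A2 (3.88 ± 0.20 (SE), adjusted p = 5.32e-09) and COL4A6 (3.29 ± 0.12 (SE), adjusted p = 2.51e-10). COL18A1, COL22A1, COL2A1 and COL1A1 were also higher there. Lower were COL3A1 (-10.59 ± 0.60 (SE), adjusted p = 1.04e-08), COL15A1 (-7.86 ± 0.40 (SE), adjusted p = 3.99e-09), COL6A3, COL25A1, COL1A2 and COL4A2 (-0.74 ± 0.14 (SE), adjusted p = 5.05e-04). COL8A1 had 8356 counts over the endoderm and 4 over the endothelial libraries, and COL3A1 had 6 and 14269. The size of these 2 folds is therefore uncertain. COL4A1 was higher in endoderm (0.50 ± 0.14 (SE), adjusted p = 0.00667), so the 2 chains of the common type IV network differed in sign.

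The 6 type IV genes sit head to head in pairs on chromosomes 13, 2 and X, each pair transcribed outward from a shared stretch. In the GENCODE annotation of GRCh38, COL4A1 lies at 13:110148963-110307233 on the minus strand and COL4A2 at 13:110305812-110513209 on the plus strand. COL4A4 (2:227002711-227164453, minus) faces COL4A3 (2:227164565-227314792, plus), and COL4A6 (X:108155607-108439497, minus) faces COL4A5 (X:108439844-108697545, plus). The 3 stretches are shown because each pair's levels are compared next. They are from RefSeq on GRCh38.p14, read on the plus strand, 5′ to 3′, with matches to GGGCGG (GC box) or CCAAT on either strand in capitals. RefSeq's start sites, which differ from the gene ends above, set their limits: the first is the whole interval between start sites and the others are the 250 bases before the start of the plus-strand gene, out of 418 and 379 bases.
COL4A1-COL4A2, chr13:110307158-110307283: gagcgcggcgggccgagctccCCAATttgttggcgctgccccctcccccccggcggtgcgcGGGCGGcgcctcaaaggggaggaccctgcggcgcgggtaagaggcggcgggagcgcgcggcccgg
COL4A4-COL4A3, chr2:227164374-227164623: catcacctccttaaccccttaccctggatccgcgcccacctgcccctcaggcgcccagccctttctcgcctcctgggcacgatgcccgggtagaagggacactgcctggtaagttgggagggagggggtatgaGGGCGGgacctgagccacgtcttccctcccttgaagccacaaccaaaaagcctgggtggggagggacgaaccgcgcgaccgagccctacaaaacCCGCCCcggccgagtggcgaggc
COL4A6-COL4A5, chrX:108439588-108439837: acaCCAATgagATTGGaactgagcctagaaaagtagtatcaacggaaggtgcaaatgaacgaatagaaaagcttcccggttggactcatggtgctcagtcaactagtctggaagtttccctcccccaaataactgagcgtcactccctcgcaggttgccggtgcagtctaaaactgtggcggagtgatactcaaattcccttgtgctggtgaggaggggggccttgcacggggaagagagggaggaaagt
The COL4A1-COL4A2 stretch holds 1 GC box and 1 CCAAT, at 80.2% G and C. The COL4A4-COL4A3 stretch holds 2 GC boxes, and the COL4A6-COL4A5 stretch holds 2 CCAAT. None of these matches overlap, and TATAAA was not found in any of the 3. Among 35116 RefSeq promoters, GGGCGG was in 34.6% of upstream windows of 126 bases and 42.6% of those of 250 bases, CCAAT in 21.1% and 32.01%, and TATAAA in 5.87% and 10.7%. A match describes the letters and is neither a site nor a cause.

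Partner chains were not held at one ratio. COL4A1 over COL4A2, both in RPKM, was 1.51 ± 0.0963 (SD, n = 4) at day 0 and 1.096 ± 0.0655 in SOX17+ endothelium of day 7. It was 2.46 ± 0.0949 at day 4 and 2.59 ± 0.172 at day 7 of endoderm (n = 3), with single libraries from 2.43 to 2.77. Endoderm of day 7 lay above all endothelial libraries, with an exact two-sided permutation p of 0.0571, the smallest that 3 against 4 allows (adjusted over the 6 ratio tests 0.0686). SOX17+ cells of day 7 lay above SOX17- cells, 1.01 to 1.14 against 0.910 to 0.996 (exact permutation p = 0.0286, adjusted 0.0571). The annotated COL4A1 and COL4A2 genes overlap on opposite strands, and the strand setting of the counting is not stated, so reads of the overlap cannot be assigned with certainty.

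COL4A5 over COL4A6 was 2.44 ± 0.222 at day 0, 4.99 ± 0.254 in SOX17+ endothelium of day 7 and 7.37 ± 0.166 at day 12, and 0.659 ± 0.0921 in endoderm of day 7. The order of both chains was thus inverted in endoderm, without a test. COL4A3 over COL4A4 was 0.939 ± 0.0127 in day 7 endoderm, the group in which both genes were highest.

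COL6A1 and COL6A2 lie on the same strand of chromosome 21. COL6A1 over COL6A2 was 1.37 ± 0.189 at day 0, 4.21 ± 0.179 at day 2, 0.919 ± 0.276 at day 4 and 0.283 ± 0.00795 in SOX17+ cells of day 7. Day 2 lay above day 0 and day 7 below day 4 in all libraries (exact permutation p = 0.0286 each, the smallest possible for 4 against 4, adjusted 0.0571). KO cells had 4.06 ± 0.372 at day 2. COL6A3 over COL6A2 was 0.0259 ± 0.00844 at day 2 and 0.545 ± 0.114 at day 4.

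COL1A1 over COL1A2 went from 7.51 ± 0.262 at day 0 through 0.325 ± 0.116 at day 2 and 1.27 ± 0.492 at day 4 to 0.0365 ± 0.0185 in SOX17+ cells of day 7. The KO libraries of day 4 ranged from 0.641 to 5.99, with the highest in number 4, the library with low COL3A1 and COL1A2. In endoderm it was 0.701 ± 0.0662 at day 2 and 3.65 ± 1.01 at day 7. COL3A1 over COL5A2, both on chromosome 2, had a ratio of 0.0133 ± 0.00384 at day 2 and 2.695 ± 1.59 at day 4. COL9A1 and COL19A1, both on chromosome 6, went opposite ways at day 2, as given above.

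**Figure D5:**
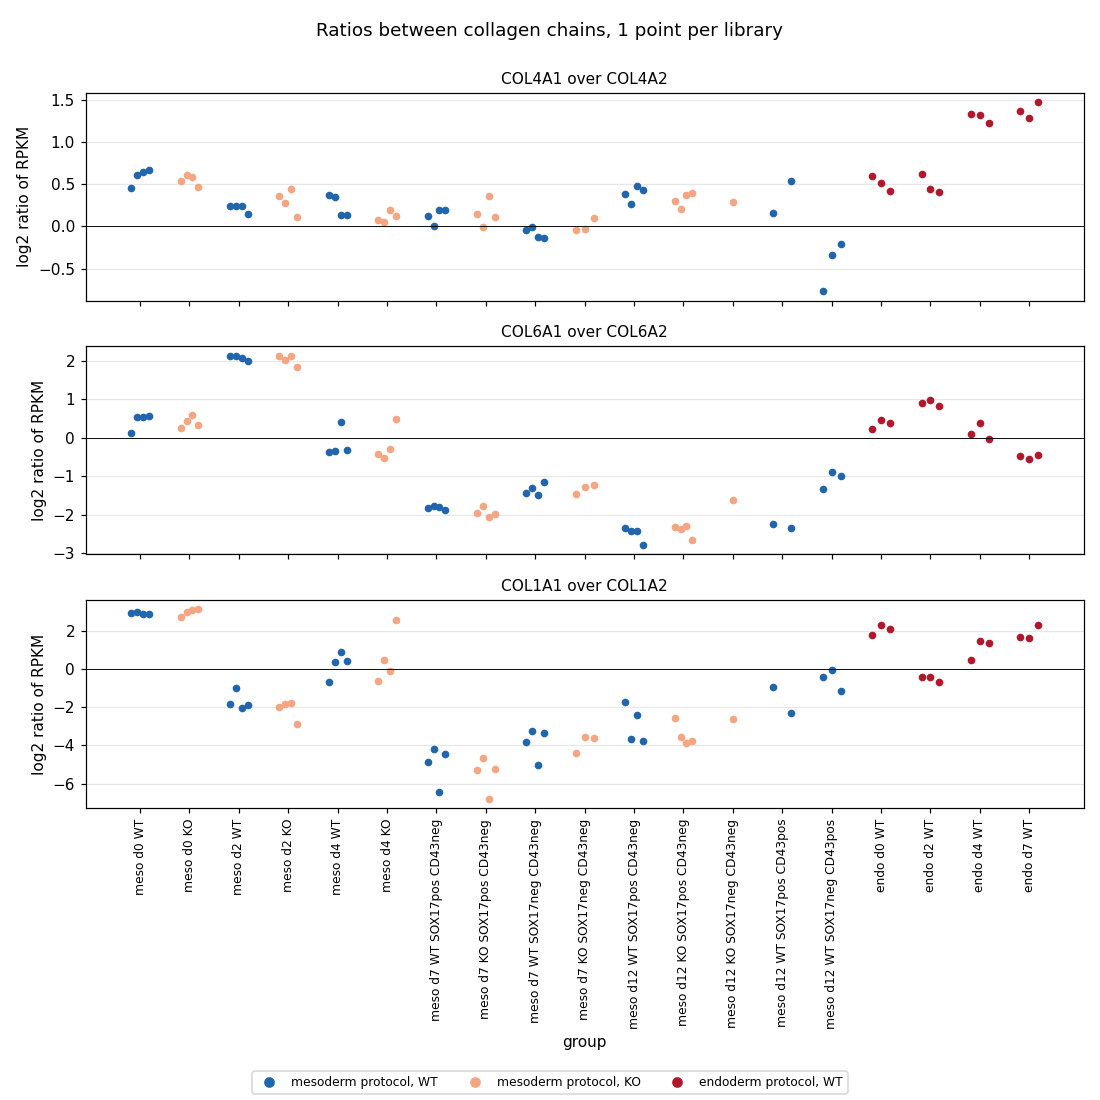
Ratio of RPKM between partner chains on a log2 axis, 1 point per library, for COL4A1 over COL4A2 (top), COL6A1 over COL6A2 (middle) and COL1A1 over COL1A2 (bottom), by group on the x axis. Endoderm of days 4 and 7 is high in the top panel, day 2 of the mesoderm protocol is high in the middle panel, and day 0 is highest and the CD43- fractions of day 7 lowest in the bottom panel.

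Many genes that make, trim and bind collagen also rose at day 4. At this step 51.4% of all 21612 genes tested were called in WT, 5608 of them higher and 5504 lower, beside which each list below stands. Of 22 genes for chain modification and export, 14 rose and 2 fell from day 2 to day 4 in WT. P3H1 (1.68 ± 0.10 log2), KDELR3 (1.61 ± 0.38) and the lysyl hydroxylase PLOD2 (1.60 ± 0.26) rose, while P3H2 (-1.71 ± 0.45) fell. Of 15 genes for procollagen trimming and cross-linking, 10 rose and 3 fell, with PCOLCE, an enhancer of propeptide removal, going from 4.06 to 69.1 RPKM (4.09 ± 0.29) and the cross-linking enzyme LOXL1 from 3.14 to 38.9 (3.62 ± 0.36). Of 12 collagen-binding matrix genes tested, 7 rose and 1 fell, including BGN (4.99 ± 0.30) and LUM (6.85 ± 0.88). The medians of these 3 lists were 0.80, 0.92 and 1.81 log2, against -0.01 for all genes. Of 12 genes of collagen breakdown, 8 rose and 2 fell, with TIMP3 (3.23 ± 0.38), an inhibitor of matrix proteases, among the former and MMP9 (-3.45 ± 0.29) among the latter.

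Receptors and basement membrane partners were called in both directions, at counts close to the share over all genes. Of 8 collagen receptors tested, 3 rose and 2 fell at day 4 (51.4% of all genes called). DDR2, a receptor for fibrillar collagens, was at 3.06 ± 0.36 and DDR1 at -2.77 ± 0.16 log2. Of 15 laminins, nidogens and heparan sulfate proteoglycans, 5 rose and 4 fell (51.4% of all genes called). Among them NID2, which links laminin to type IV collagen, went from 0.919 to 133 RPKM (7.16 ± 0.46). Between day 4 and SOX17+ endothelium of day 7, 14 of the 22 chain modification genes were lower and 1 higher (62.1% of all genes called, 30.3% lower), with PLOD2 at -3.34 ± 0.32. HSPG2, the basement membrane proteoglycan perlecan, rose from 7.32 to 143 RPKM (4.31 ± 0.22).

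In endoderm, HSPG2 rose from 73.8 to 321 RPKM between days 4 and 7 (2.13 ± 0.15) and LAMB1 from 65.8 to 171 (1.39 ± 0.08), in a list with 4 higher and 3 lower of 15 (21.3% of all genes called). Fibronectin (FN1) rose from 238 to 691 RPKM (1.54 ± 0.17). In the change from day 0 to day 4, 15 of 22 modification genes had the more positive change in mesoderm and 1 the more negative (40.4% of all genes called). HSPG2 (from 67.5 to 143 RPKM, 1.08 ± 0.24) and NID1 (from 82.8 to 132, 0.67 ± 0.13) were higher in WT SOX17+ than SOX17- cells of day 7, as was COL4A1. In SOX17- CD43+ cells of day 12, 12 of 13 basement membrane partners were lower and 0 higher than in endothelium (66.2% of all genes called, 33.9% lower), while the collagen receptors LAIR1 (6.44 ± 0.29) and ADGRG1 (3.23 ± 0.22), the former an inhibitory receptor of blood cells, were higher. KO against WT gave 0 called genes in the 6 pathway lists in all 6 comparisons of genotype, where at most 0.187% of all genes were called.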

How the data were processed

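Gene expression was measured by total RNA sequencing of 65 libraries in 19 groups, assigned from the sample titles. The authors deposited a table of raw fragment counts per Ensembl gene and a second table of log2 (RPKM + 1) values, on library sizes scaled by TMM per the file name. Per the submitters' processing notes, cutadapt 1.18, featureCounts, R 3.2.2 and the GRCh38 build were used. No source used here names the aligner, the annotation, the strand setting or the gene lengths. Symbols were attached from GENCODE to 58039 of the 58302 identifiers, and 263 had no match. The deposited log2 values were turned back into RPKM for levels.

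Counts were tested with the quasi-likelihood test of edgeR 4.0.16 in R 4.3.3, with TMM scaling and filterByExpr (minimum count 10, minimum total 15), in 6 fits of 7 to 28 libraries, and p-values were adjusted over all genes of a fit. The 6 fits gave 27 comparisons, 4 of them differences of differences. The code was tested on simulated data. Library totals ran from 10366048 to 19081031 counts. Exact counting intervals (95%) and the floor of 3 counts cover counting error only. No pair among 85 pairs of libraries within groups agreed within sampling noise (chi-square per gene at least 4.47).

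The 44 members, the 6 pathway lists and the 8 marker lists were chosen with earlier results of these data known. Values per library are given for the 16 members with the highest group mean and for others called at 10 CPM or more, and up to 3 genes per direction are named from a pathway list. Each count of calls was recomputed with DESeq2 1.42.0, with limma 3.58.1 on the deposited log2 values, with median-of-ratios scaling in edgeR, without the filter, with the compared groups alone, with the replicate number or the run of library numbers as a block, and with each library left out in turn. An alternative without 2 day 4 libraries was added after seeing the data. Same-numbered libraries deviated together (every correlation of deviations over 0.1) for KO against WT at day 0 and in SOX17+ cells of day 7 and for WT day 12 against day 7, and libraries of 1 run did so also for KO SOX17+ against SOX17- cells (0.135 to 0.318) and for KO against WT in SOX17- cells. The single KO SOX17- CD43- library of day 12 entered no comparison.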

Additional observations from a re-analysis of the deposited data

Results flagged for a closer look

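In 6 of 176 group values of the main members, 1 library lay far from the others of its group, where chance gives about 1 in 20. COL1A2 lay at 26.9 RPKM in WT number 3 of day 4, against 89.2 in the nearest library of the group. COL6A2 lay at 133 RPKM in WT SOX17- number 4 of day 7 (nearest 104). COL9A2 lay at 5.10 RPKM in WT SOX17+ number 3 of day 7 (nearest 8.78). COL4A5 lay at 5.31 RPKM in WT number 3 of day 0 (nearest 5.93). COL23A1 lay at 6.11 RPKM in WT SOX17+ CD43- number 1 of day 12 (nearest 4.60). COL15A1 lay at 0.0234 RPKM in KO number 3 of day 2 (nearest 0.0116), both at the level of single counts.

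For 5 of the main members the change from day 0 to day 2 differed between the protocols by the interaction term of edgeR, given here as mesoderm minus endoderm on the log2 scale. It was 0.68 for COL6A1, 2.29 for COL6A3, 1.45 for COL9A2, -1.78 for COL1A1 and -2.60 for COL23A1. For the change to day 4 it differed for 13. The more positive change in mesoderm was found for COL6A3 (11.74), COL3A1 (10.89), COL15A1 (4.51), COL5A1 (3.18), COL1A2 (3.14), COL6A2 (2.83), COL6A1 (2.41), COL1A1 (1.44) and COL4A2 (1.36). The more positive change in endoderm was found for COL23A1 (-4.57), COL9A2 (-3.06), COL4A6 (-1.56) and COL5A2 (-1.36).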

How the results depend on the processing

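Of 407 recomputed counts of called members, 388 stayed within 1.5 times the reported count and 19 did not. For WT SOX17+ against SOX17- cells of day 7 (4 reported) there were 7 without a filter on low counts, 2 with the compared groups alone and 2 to 6 with a library left out. For KO (3 reported) there were 7 without the filter, 6 by DESeq2, 5 by limma, 11 with the compared groups alone and 0 to 2 with a library left out. For KO the replicate block gave 5 by number and 6 by library run, and the block changed no other count by over 1.5 times. Leaving out a library gave 9 to 12 for WT day 12 against day 7 (14 reported), 8 to 12 for KO (13 reported) and 7 to 16 for SOX17+ CD43+ against SOX17+ CD43- cells (15 reported). The cause was not tested, beyond fewer libraries in the last kind of refit.

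For the 16 main members, 193 called values were refitted 2748 times. The call held in 2636 refits and was lost in 112, of which 92 left out a library, and 0 changed direction. All counts of called members for KO against WT stayed at 0 under the alternatives run. The smaller groups (2 or 3 libraries) and members with few counts, such as COL10A1, limit what could be tested.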

Other observations

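The 1 library of KO SOX17- CD34+ CD43- cells of day 12 entered no comparison. Collagens made up 0.737% of its counts. COL4A1 lay at 169 RPKM, COL4A2 at 138, COL5A2 at 123, COL3A1 at 117 and COL6A2 at 106. COL1A2 lay at 53.2 RPKM and COL1A1 at 8.76. COL4A5 lay at 51.4, COL25A1 at 18.5, COL4A6 at 13.5 and COL15A1 at 10.3 RPKM. COL5A3, COL19A1 and COL24A1 had 0 counts.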
